A study of Mus musculus with 22 samples.

Results

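The transcripts examined were those of 6 genes of antigen display by MHC class I in mice that carry a K5-VGLL3 transgene. They are B2M, H2-K1, H2-D1, H2-Q4, H2-T23 and NLRC5. Rows were taken by symbol, and all 6 were present among the 24401 genes of the tissue table and among the 21596 genes of the keratinocyte table. K5 stands for keratin 5, a gene of basal keratinocytes, and VGLL3 is a cofactor of TEAD transcription factors whose expression is biased towards females. Nonlesional skin and whole blood were each taken from 8 mice, 4 labelled VGLL3_TG and 4 labelled WT, with 2 males (replicates 1 and 2) and 2 females (replicates 3 and 4) of each genotype. The design text calls those mice age-matched without giving an age. The keratinocyte groups were primary cultures from the tails of 3 VGLL3_TG and 3 WT littermates aged 23 days, grown for 3 days. All 3 transgenic cultures were male, while wild-type cultures 1 and 2 were female and culture 3 was male. No group received a treatment. The sources used here give neither the genetic background nor the number of founder lines. The labels do not say whether the cultures came from the same mice as the tissues, and p-values measure the spread between these animals or cultures.

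An MHC class I molecule is a heavy chain held by beta-2-microglobulin around a short peptide, and CD8 T cells inspect it on the surface of nearly all nucleated cells. The peptides are cut by the proteasome, pumped into the endoplasmic reticulum by TAP and fitted with the help of tapasin and calreticulin. Heavy chain genes, B2M, TAP and the immunoproteasome are induced by interferons. NLRC5 is a transactivator that binds no DNA itself and is recruited by RFX, CREB/ATF and NF-Y proteins bound to the S, X and Y boxes of class I promoters. In skin, keratinocytes carry class I at a low level at rest, and interferon raises it.

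The promoters of the chains are shown because this shared arrangement of boxes is what NLRC5 and the interferon factors are known to use. RefSeq promoter windows on GRCm38.p6 held 5 of the 6 genes (not NLRC5). Capitals mark matches on either strand to CCAAT (the Y box, which reads ATTGG on the other strand), TGACG (as in the X2 box), GGGNNTTCC (NF-kB-like) and GAAANNGAA or GAANNGAAA (cores of an interferon-stimulated response element). GAANNGAAA was added after the sequences had been seen. The H2-K1 stretch covers chr17:34000348-34000467 on the minus strand, the H2-Q4 stretch chr17:35379437-35379571 on the plus strand and the B2M stretch chr2:122147542-122147647 on the plus strand. Of H2-D1 (chr17:35262923-35262952, plus strand) and H2-T23 (chr17:36032805-36032834, minus strand) the 30 bases around the interferon element are shown. Starts are those of RefSeq, and the H2-D1 and H2-T23 stretches lie inside the gene bounds of the GENCODE annotation given with the values. All are written 5′ to 3′ in the direction of transcription.
H2-K1: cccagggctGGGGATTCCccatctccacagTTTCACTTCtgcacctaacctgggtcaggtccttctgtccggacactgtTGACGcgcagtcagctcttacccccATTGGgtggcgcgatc
H2-Q4: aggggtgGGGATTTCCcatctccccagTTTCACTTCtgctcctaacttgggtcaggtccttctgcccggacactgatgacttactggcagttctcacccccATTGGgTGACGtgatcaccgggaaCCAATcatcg
B2M: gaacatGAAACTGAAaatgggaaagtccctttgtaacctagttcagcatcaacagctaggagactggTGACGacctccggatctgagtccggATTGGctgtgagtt
H2-D1: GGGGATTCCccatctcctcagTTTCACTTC
H2-T23: tcctactgctTTCTCTTTCataaagacaca

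H2-K1, H2-D1 and H2-Q4 each held an NF-kB-like match followed by an interferon element. The interferon element began 21 bases after the NF-kB-like match in H2-K1 and H2-D1 and 20 bases after it in H2-Q4. In H2-K1, H2-D1 and B2M the TGACG match began 25 bases before the ATTGG match, whereas in H2-Q4 the TGACG match began 6 bases after the start of ATTGG. H2-T23 held an interferon element and a CCAAT match, and no TGACG in the 250 bases before its start. Among 32851 promoter windows of that length, CCAAT was present in 33.8%, TGACG in 17.8%, GGGNNTTCC in 4.98%, GAAANNGAA in 7.13% and GAANNGAAA in 6.31%. A match to TTCNNNGAA, the letters of a gamma-activated site, was present in 7.02% of windows and in none of those of the 5 chains. GAAANNGAA and GAANNGAAA can overlap each other, and a match is a string of letters, not a measured binding site.

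Depth ranged from 19600892 to 40678246 counts in skin, from 11197265 to 18235483 in blood and from 33412093 to 51877437 in keratinocytes. VGLL3 counts were 27381 in transgenic skin 2, 3013 to 3435 in transgenic skin 1, 3 and 4 and 1475 to 2322 in wild-type skin, 16549 to 21502 in transgenic and 6737 to 10440 in wild-type keratinocytes, and at most 16 in blood, where the haemoglobin genes took 55.1% to 75.9% of counts. The libraries fitted their tissue labels, with 7 basal keratinocyte markers summing to 41227 to 44466 CPM (counts scaled to the depth of the library) in the cultures. The male skin libraries numbered 2 stood apart from the others of their genotype in hair follicle genes, the transgenic one being that with the highest VGLL3 count. The sum of 14 hair genes was 21.4 to 29.3 CPM in transgenic skin 1, 3 and 4 and 2767 CPM in transgenic skin 2, while it was 5837 to 39977 CPM in wild-type skin 1, 3 and 4 and 29.4 CPM in wild-type skin 2. Skin results are therefore given with and without both libraries numbered 2. Without them the hair sums do not overlap between genotypes, so that fit cannot tell genotype from hair state. Wild-type blood also held more transcripts of suprabasal keratinocytes, with 8 markers summing to 33.4 to 115 CPM against 0.925 to 2.21 CPM in transgenic blood.

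Levels between genes were compared per length, as RPKM over the exons of each gene. In wild-type skin B2M was the most abundant at 1167 ± 393 RPKM (SD, n = 4), followed by H2-D1 at 320 ± 89.4 and H2-K1 at 269.8 ± 88.1 RPKM. Within these libraries H2-D1 took 49.2% to 52.2% of the summed RPKM of the 4 heavy chains and H2-K1 40.8% to 43.4%, without a test. H2-T23, which encodes the nonclassical chain Qa-1 that is read by the NK receptor CD94/NKG2A, was at 28.1 ± 9.68 RPKM. H2-Q4, a nonclassical heavy chain of the Q region, was at 19.3 ± 5.21 RPKM. Its share of the heavy chain RPKM was 2.84% to 3.48%, against 3.68% to 5.26% for H2-T23. NLRC5 was lowest at 6.48 ± 2.42 RPKM. Wild-type blood gave B2M at 1029 ± 96.6, H2-D1 at 130.8 ± 22.2, H2-K1 at 87.0 ± 10.7, H2-T23 at 15.4 ± 2.23, H2-Q4 at 7.60 ± 0.659 and NLRC5 at 3.11 ± 0.461 RPKM (SD, n = 4 each).

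In wild-type keratinocytes B2M was at 175 ± 17.7, H2-D1 at 95.8 ± 1.37, H2-K1 at 78.0 ± 0.772, H2-T23 at 27.5 ± 2.48, H2-Q4 at 3.39 ± 0.741 and NLRC5 at 0.0966 ± 0.0170 RPKM (SD, n = 3 each). The order of the genes was the same in the wild-type means of all 3 sources. Keratinocytes were scaled apart from the tissues and blood and skin RNA came from different kits, so levels across sources are set side by side without a test. The order of skin and blood depended on the scaling. Scaled within each tissue, H2-K1 averaged 793 CPM in wild-type skin and 256 CPM in wild-type blood, whereas on a scaling shared by the 16 tissue libraries it averaged 308 and 666 CPM, so no order between tissues is read from these levels.

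**Figure D1:**
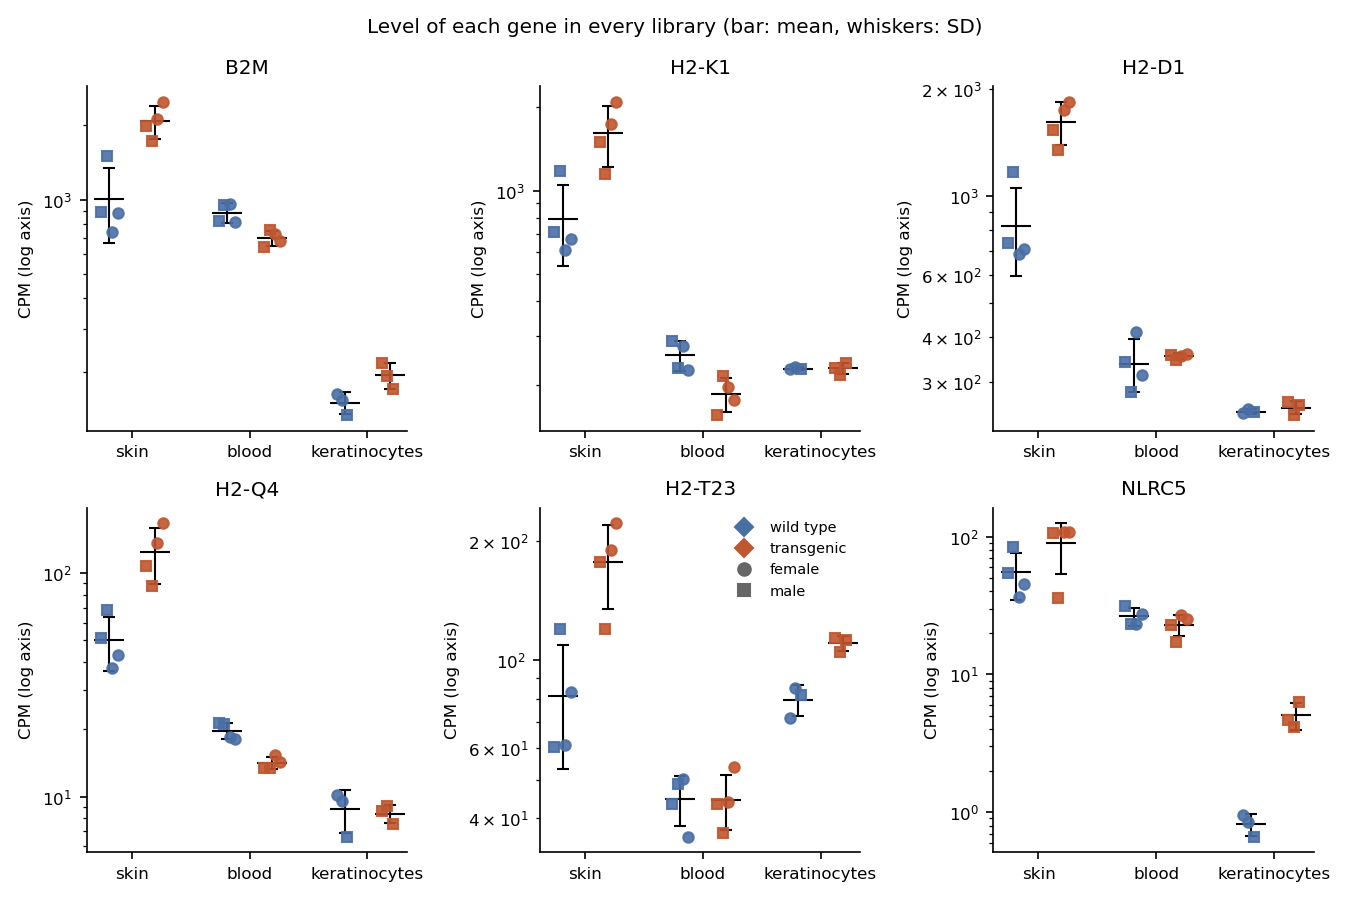
CPM of the 6 genes in each library on log axes, wild type in blue and transgenic in orange, circles for females and squares for males, with the mean and SD of each group. Transgenic skin lies higher on average for all 6 genes, with overlap for H2-K1, H2-T23 and NLRC5, and in keratinocytes NLRC5 is 0.663 to 0.947 CPM in wild type and 4.14 to 6.28 CPM in transgenic cultures.

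In skin the chains were higher in transgenic mice, by 1.97-fold to 2.47-fold, without passing the test over all genes. B2M (chromosome 2, 122147686 to 122153083 on mm10, overlapped on the opposite strand by Patl2) read 1990, 1725, 2123 and 2490 CPM in transgenic skin 1 to 4 and 889, 1500, 742 and 885 CPM in wild-type skin. Every transgenic library was above every wild-type one, with wild-type skin 2 the highest of its group. The log2 fold change was 1.07 (SE 0.274, 95% interval 0.43 to 1.71, edgeR adjusted p = 0.226).

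Of the classical heavy chains, which present peptides to CD8 T cells, H2-D1 (chromosome 17, 35262730 to 35267499) read 1530, 1342, 1746 and 1839 CPM in transgenic skin and 736, 1169, 686 and 706 CPM in wild-type skin. Its groups did not overlap, and the log2 fold change was 0.98 (SE 0.244, 95% interval 0.41 to 1.55, edgeR adjusted p = 0.220). H2-K1 (chromosome 17, 33996017 to 34000347) read 1495, 1145, 1733 and 2089 CPM against 712, 1176, 611 and 672 CPM. Only the libraries numbered 2 overlapped, the transgenic one lying just below the wild-type one, and the log2 fold change was 1.03 (SE 0.300, edgeR adjusted p = 0.229).

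The nonclassical chains behaved alike in size. H2-Q4 (chromosome 17, 35379617 to 35385290, with Gm11131 antisense to it) read 107.4, 87.1, 136 and 167 CPM in transgenic skin and 51.3, 68.6, 37.6 and 43.1 CPM in wild-type skin. It had the largest difference of the 6 genes in skin and no overlap, at a log2 fold change of 1.31 (SE 0.270, 95% interval 0.68 to 1.93, edgeR adjusted p = 0.185). H2-T23 (chromosome 17, 36029773 to 36032855, with A930015D03Rik antisense to it) read 177, 119.6, 189.6 and 221 CPM against 60.4, 120.1, 61.3 and 83.3 CPM. Again the libraries numbered 2 were nearly equal, and the log2 fold change was 1.11 (SE 0.288, edgeR adjusted p = 0.227).

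NLRC5 (chromosome 8, 94434356 to 94527272, overlapped by the opposite-strand 9330175E14Rik and by Mir7072) read 105.8, 35.5, 107.8 and 107.6 CPM in transgenic skin and 54.6, 83.8, 36.6 and 44.9 CPM in wild-type skin. Transgenic skin 2 was the lowest of all 8 libraries, and the other 3 transgenic libraries were above all wild-type ones. The log2 fold change was 0.72 (SE 0.413, 95% interval -0.24 to 1.67, edgeR adjusted p = 0.392).

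Over all 17342 genes tested in skin, 0.0115% passed the test, and none of the 6 genes did. At an unadjusted p under 0.05 there were 5 of the 6 (all but NLRC5) and 16.9% of all genes. The 5 chains moved together across these libraries (Pearson r of 0.953 to 0.994), so they are not separate observations, and the genes were chosen with earlier results of these data known. DESeq2 called the 5 chains, with adjusted p of 0.00086 for H2-Q4 to 0.0164 for H2-K1, and 3.7% of all genes as higher. The groups did not overlap, with transgenic higher, for 3 of the 6 genes and for 3.89% of all genes. Their median log2 fold change was 1.05, against -0.0085 for all genes. Without both libraries numbered 2 all 6 genes passed, with log2 fold changes of 1.24 for NLRC5 to 1.62 for H2-Q4 and edgeR adjusted p of 0.0064 to 0.0142, while 1421 genes (8.08%) were called higher and 1674 lower. The libraries left out were the highest wild-type and the lowest transgenic one for each of the 6 genes. Removing them widens each difference by construction, and hair state and genotype cannot be told apart in that fit. Leaving out wild-type skin 2 alone let B2M, H2-D1, H2-Q4 and H2-T23 pass at an edgeR adjusted p of 0.0431 each, when 0.815% of all genes were called higher.

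**Figure D2:**
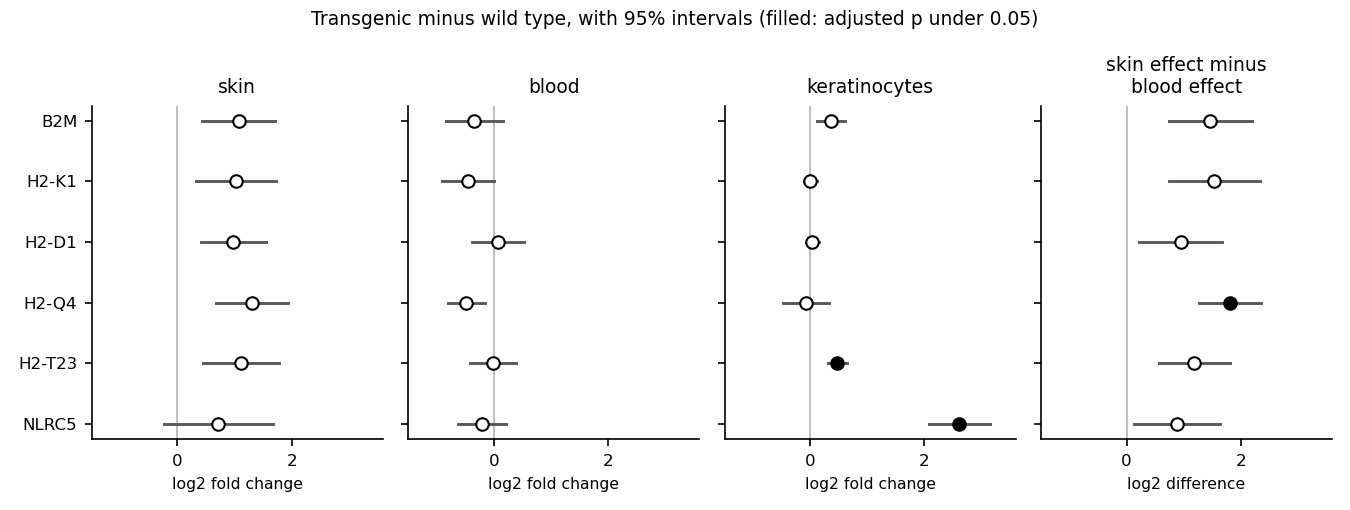
Log2 fold changes, transgenic minus wild type, in skin, blood and keratinocytes and the skin effect minus the blood effect, with 95% intervals and filled points at an adjusted p under 0.05. The filled points are H2-T23 (0.47) and NLRC5 (2.62) in keratinocytes and H2-Q4 (1.82) for skin minus blood.

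Hair follicle genes and T cell markers moved with the skin result. The 3 transgenic libraries with hair sums under 30 CPM had the highest level of each of the 6 genes, and wild-type skin 2, with a hair sum of 29.4 CPM, was the highest wild-type library for each of them. H2-K1 was at 1176 CPM in wild-type skin 2 and at 1495 to 2089 CPM in transgenic skin 1, 3 and 4. Transgenic skin 2 was above wild-type skin 1, 3 and 4 for the 5 chains but below them for NLRC5. With the mean of the hair genes as a covariate the log2 fold changes of the chains were 0.54 for H2-K1 to 0.84 for H2-Q4, that of NLRC5 was -0.20, and none passed. The sum of 10 T cell markers was 78.7 to 165 CPM in transgenic and 35.1 to 79.5 CPM in wild-type skin, and all 10 were higher on average. The 7 B cell markers summed to 4.00 to 6.36 CPM in transgenic and 1.04 to 3.35 CPM in wild-type skin without overlap. PTPRC, the pan-leukocyte marker CD45, added after its values had been seen, was at 85.7 against 46.4 CPM (log2 fold change 0.84, edgeR adjusted p = 0.349). The sum of 6 NK cell markers was 8.28 to 20.5 against 4.49 to 14.4 CPM and that of 7 dendritic cell markers 185 to 398 against 113 to 285 CPM. The 7 myeloid markers overlapped too, at 445 to 950 against 323 to 887 CPM. The 8 suprabasal keratinocyte markers summed to 8476, 1843, 7784 and 9356 CPM in transgenic skin 1 to 4. In wild-type skin 1 to 4 they summed to 3665, 10890, 2717 and 4172 CPM. Transgenic skin 2 was the lowest library for them and wild-type skin 2 the highest. In bulk tissue more RNA of a gene per cell and more cells that express it cannot be told apart, and the part of these cells in the result was not tested.

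**Figure D3:**
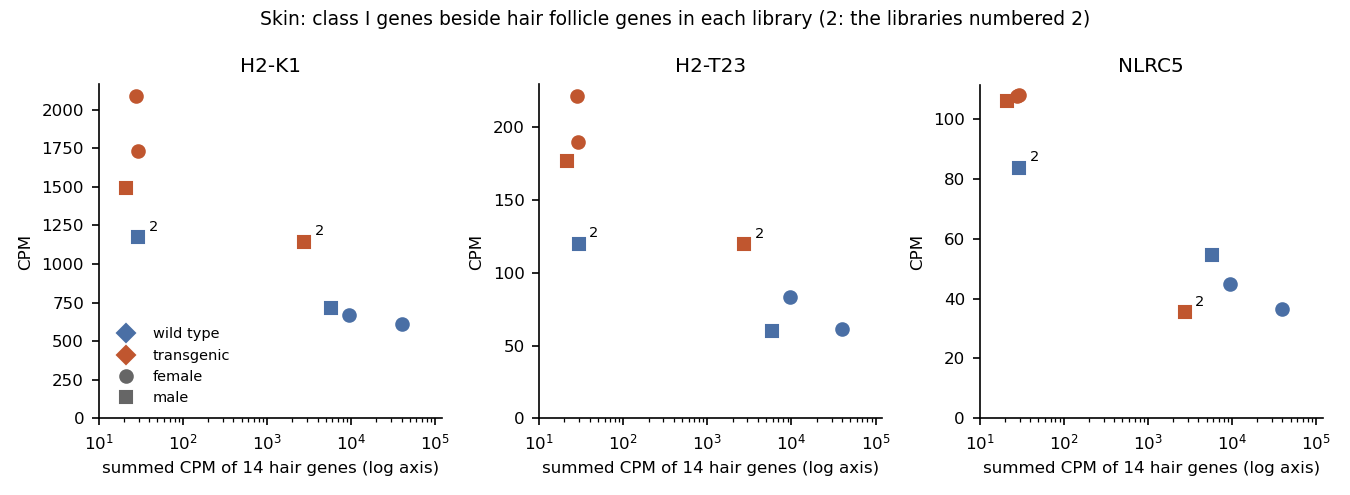
CPM of H2-K1, H2-T23 and NLRC5 in each skin library against the summed CPM of 14 hair follicle genes (log axis), wild type in blue and transgenic in orange, with the libraries numbered 2 marked. Wild-type skin 2 lies at 29.4 CPM of hair genes among the transgenic libraries, and transgenic skin 2 at 2767 CPM near the wild-type ones.

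In skin the transgenic excess was larger in females than in males for all 6 genes, and the difference passed for none. H2-K1 averaged 1911 CPM in transgenic and 641 CPM in wild-type females and 1320 against 944 CPM in males (n = 2 each). The female minus male effect of H2-Q4 was 1.21 on the log2 scale (SE 0.306, 95% interval 0.49 to 1.94, edgeR adjusted p = 0.554). For the other 5 genes it was 0.77 for H2-D1 to 1.37 for NLRC5, with adjusted p of 0.554 to 0.593, and leaving out 1 library moved it to between 0.22 and 1.202 for H2-T23 and between 0.79 and 2.36 for NLRC5. No gene passed the sex-by-genotype test in skin (0%) or in blood (0%). H2-Q4 alone of the 6 had an unadjusted p under 0.05 in skin and none had one in blood, and DESeq2 called none of them in either. Both libraries that stood apart in hair genes were male, 1 of the 2 males of each genotype, so sex and that difference were partly confounded. Without wild-type skin 2 the female minus male effect was 0.44 for B2M and 0.22 for H2-T23. Without transgenic skin 2 it was 0.77 for B2M and 0.54 for H2-T23. The part of the hair difference in the sex term was not tested.

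Other genes of class I display followed the chains in skin, while the factors that hold NLRC5 at promoters did not. No gene of the lists passed the test, so the following are values only. All 17 other class I and class I-like heavy chains measured had positive log2 fold changes, with a median of 1.11, against 49.1% positive among all genes. H2-M3, which presents formylated peptides, was at 28.4 against 13.1 CPM (log2 fold change 1.11, edgeR adjusted p = 0.227). Of the peptide loading list 8 of 9 were positive. TAP2, a subunit of the peptide pump, was at 99.7 against 44.9 CPM (log2 fold change 1.12, edgeR adjusted p = 0.152), and TAPBP, which encodes tapasin, at 243 against 144 CPM (0.78, adjusted p = 0.198).

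All 5 genes of the immunoproteasome, whose inducible subunits replace the constitutive ones, were positive in skin with a median log2 fold change of 0.95. PSMB8, a catalytic subunit, was at 101.5 against 35.6 CPM, a log2 fold change of 1.46 (edgeR adjusted p = 0.186). Of the 8 constitutive proteasome genes 1 was positive and the median was -0.09. The interferon-gamma list had 9 of 9 positive, with IRF1, a transcription factor that binds class I promoters, at 91.8 against 38.2 CPM (1.23, edgeR adjusted p = 0.196). For the 8 genes of RFX, CREB/ATF and NF-Y the median was -0.03 with 4 positive. MHC class II genes, which present peptides to CD4 T cells, were positive in 10 of 10 with a median of 1.10. Without both libraries numbered 2, when 8.08% of all genes were called higher, edgeR called 10 of the other class I chains, 4 peptide loading genes, all 5 of the immunoproteasome, 5 of the interferon-gamma list and all 10 class II genes as higher, and 0 of the constitutive proteasome and of the RFX, CREB/ATF and NF-Y genes. Hair state and genotype cannot be told apart in that fit.

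In blood 5 of the 6 genes had negative log2 fold changes and none passed. H2-Q4 read 13.5, 13.4, 15.4 and 14.3 CPM in transgenic and 21.3, 21.1, 18.4 and 18.1 CPM in wild-type blood, so every transgenic library was lower. The log2 fold change was -0.48 (SE 0.147, 95% interval -0.81 to -0.15, edgeR adjusted p = 0.177). H2-K1 read 155.8, 216, 197 and 176 CPM against 288, 229.97, 277 and 227 CPM, again with no overlap (log2 fold change -0.46, SE 0.202, adjusted p = 0.315). B2M read 641, 752, 723 and 678 CPM against 816, 952, 961 and 809 CPM, also lower in every transgenic library (-0.34, SE 0.221, adjusted p = 0.479).

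The remaining genes overlapped between genotypes in blood. H2-D1 read 357, 344, 354 and 359 CPM in transgenic and 341, 280.3, 415 and 314 CPM in wild-type blood, a log2 fold change of 0.07 (95% interval -0.38 to 0.53, edgeR adjusted p = 0.892). H2-T23 read 43.3, 36.6, 43.8 and 53.9 CPM against 43.5, 48.7, 50.2 and 35.9 CPM, and its log2 fold change of -0.01 (95% interval -0.42 to 0.39, adjusted p = 0.984) took the other sign, at 0.02, with RLE scaling. NLRC5 read 22.8, 17.2, 26.7 and 25.2 CPM against 31.6, 23.3, 23.4 and 27.2 CPM (log2 fold change -0.21, adjusted p = 0.614).

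Of 10701 genes tested in blood 0.841% passed, and of the 6 genes none did with edgeR, DESeq2 or limma-voom. H2-Q4 and H2-K1 had an unadjusted p under 0.05, as did 15.6% of all genes. The groups did not overlap, with transgenic lower, for 3 of the 6 genes and for 5.02% of all genes, and with transgenic higher for none of the 6 and for 3.69% of all genes. Several blood cell markers moved with genotype. The 10 T cell markers summed to 99.1 to 134 CPM in transgenic and 173 to 250.02 CPM in wild-type blood, the 7 dendritic cell markers to 27.3 to 42.0 against 48.8 to 52.3 CPM, the 7 myeloid markers to 140.8 to 162 against 41.9 to 105 CPM and the 8 neutrophil markers to 2822 to 9309 against 233 to 2329 CPM, none of them overlapping between genotypes. The 7 B cell markers overlapped, at 261 to 547 against 450.4 to 656 CPM. Their part in the lower H2-K1, H2-Q4 and B2M values was not tested. With the genes that are at least 10 times higher in skin left out, the log2 fold change of H2-Q4 was -0.49. The counts of H2-Q4 itself stayed the same in that fit, so it cannot show whether they held skin RNA.

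Among the receptors that read class I, CD8B1, a chain of the CD8 coreceptor, was at 9.06 against 20.1 CPM in blood (log2 fold change -1.10, edgeR adjusted p = 0.0805). PIRB, an inhibitory class I receptor of B and myeloid cells, was at 98.9 against 36.1 CPM (1.46, adjusted p = 0.135). KLRA8, a receptor of the Ly49 family, was at 1.29 against 3.07 CPM (-1.26, adjusted p = 0.104). IFNLR1, which is not a class I receptor but a subunit of the type III interferon receptor, was at 8.10 against 1.75 CPM (2.29, adjusted p = 0.115). DESeq2, which called 3.92% of all genes, and edgeR with no filter on low counts, which called 5.29%, called all 4 of these genes, with DESeq2 adjusted p of 0.000755 for IFNLR1 to 0.0270 for KLRA8. Without transgenic blood 2 edgeR also called all 4, when 351 of 10891 genes were called higher and 215 lower. Without wild-type blood 3 it called CD8B1, when 104 of 10973 genes were called higher and 69 lower. In the main test no list gene passed in blood, where 1 of 5 immunoproteasome genes and 0 of 10 class II genes were positive, against 44.9% of all genes.

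H2-Q4 alone of the 6 passed the edgeR test of whether the genotype effect differed between skin and blood. The skin effect minus the blood effect was 1.82 on the log2 scale (SE 0.244, 95% interval 1.27 to 2.36, edgeR adjusted p = 0.0085), with animal as a block. The test called 1.35% of 16655 genes. B2M (1.47, adjusted p = 0.0596), H2-K1 (1.54, adjusted p = 0.0704), H2-T23 (1.19, adjusted p = 0.0707), H2-D1 (0.95, adjusted p = 0.198) and NLRC5 (0.89, adjusted p = 0.248) did not pass. All 6 had an unadjusted edgeR p under 0.05, as did 15.3% of all genes. DESeq2, which called 630 genes higher and 360 lower, also called B2M (adjusted p = 7.13e-05), H2-K1 (0.00225) and H2-T23 (0.00435). Skin minus blood also passed for PSMB8 (1.86, edgeR adjusted p = 0.0386) and H2-K2, a class I pseudogene (2.18, adjusted p = 0.0447), and both calls were lost when transgenic or wild-type replicate 1, 3 or 4 was left out.

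In cultured keratinocytes NLRC5 rose 6.13-fold, while no difference in the classical chains passed the test. NLRC5 read 4.68, 4.14 and 6.28 CPM in transgenic cultures 1 to 3 and 0.947, 0.852 and 0.663 CPM in wild-type cultures 1 to 3, from 155, 146 and 333 counts against 44, 30 and 27 counts. Every transgenic culture was above every wild-type one. The log2 fold change was 2.62 (SE 0.227, 95% interval 2.08 to 3.15, edgeR adjusted p = 0.000798). It was 2.41 without transgenic culture 3, the highest, 2.92 (adjusted p = 0.0145) with sex as a covariate and 2.92 (adjusted p = 0.0467) in male cultures alone, where 1 wild-type culture is assumed to vary like the transgenic ones.

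H2-T23 rose 1.39-fold in transgenic keratinocytes. It read 113.5, 104.9 and 112.4 CPM against 71.3, 85.1 and 81.6 CPM, with no overlap, and the log2 fold change was 0.47 (SE 0.0726, 95% interval 0.30 to 0.64, edgeR adjusted p = 0.00651). With sex as a covariate it was 0.43 (adjusted p = 0.0979) and in male cultures alone 0.43 (adjusted p = 0.107), which end the call. B2M read 219, 193 and 171 CPM against 164, 154 and 134 CPM, also without overlap, and its log2 fold change of 0.37 (SE 0.105, 95% interval 0.12 to 0.61) missed the threshold at an edgeR adjusted p of 0.0567. It passed with DESeq2 (adjusted p = 0.0131), which called 8.45% of all genes higher, and without transgenic culture 3 (0.44, edgeR adjusted p = 0.0108). Without that culture 1676 of 14600 genes were called higher, against 1028 of 14451 in the main test.

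H2-K1 read 230.6, 218 and 240.5 CPM in transgenic and 228, 232 and 228 CPM in wild-type cultures, overlapping in full. Its log2 fold change was 0.00 (SE 0.0489), and the 95% interval of -0.11 to 0.12 leaves room for at most a 1.09-fold increase. H2-D1 read 262, 241 and 258 CPM against 244, 251 and 246 CPM (log2 fold change 0.04, 95% interval -0.07 to 0.15, edgeR adjusted p = 0.640). H2-Q4 read 8.66, 9.03 and 7.51 CPM against 10.2, 9.60 and 6.61 CPM (log2 fold change -0.07, 95% interval -0.47 to 0.33, adjusted p = 0.820), and with sex as a covariate its sign turned, to 0.34 (adjusted p = 0.283). The test called 15.2% of 14451 genes in keratinocytes, 7.11% as higher, so 2 of the 6 being called higher stands beside that share. Groups did not overlap, with transgenic higher, for 3 of the 6 genes and for 17.7% of all genes.

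Some other genes of class I display rose in transgenic keratinocytes with NLRC5. TAP2 was at 19.2 ± 0.801 against 12.6 CPM, PSMB8 at 9.25 ± 1.72 against 3.39 CPM and PSMB10, another inducible proteasome subunit, at 24.5 ± 1.06 against 18.1 CPM (SD, n = 3). Their log2 fold changes were 0.61, 1.44 and 0.44, with edgeR adjusted p of 0.00549, 0.00672 and 0.0109. Among the other class I and class I-like chains 2 of 10 measured rose, H2-T24 (log2 fold change 0.44, adjusted p = 0.0176) and CD1D1 (1.49, adjusted p = 0.0116), which presents lipids to NKT cells. The same test called 7.11% of all genes higher. CANX, the chaperone calnexin (-0.18, edgeR adjusted p = 0.04998), and PSMD1, a regulatory subunit of the proteasome (-0.18, adjusted p = 0.0303), fell slightly.

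Of the interferon lists only IRF7, a factor of the type I interferon response, passed in keratinocytes, at 3.21 against 1.35 CPM (log2 fold change 1.23, edgeR adjusted p = 0.0125). None of the 8 interferon-gamma genes measured passed. The 8 genes of RFX, CREB/ATF and NF-Y did not pass either, in any of the 3 sources. With sex as a covariate, when 3.88% of all genes were called, TAP2 (adjusted p = 0.0242), PSMB8 (0.0196) and CD74 (0.0239) still passed, while H2-T24, CD1D1, PSMB10, IRF7, CANX, PSMD1, H2-AA and H2-AB1 did not. In male cultures alone, when 1.18% of all genes were called, none of these 11 list genes passed.

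Class II genes and some markers of antigen-presenting cells moved with NLRC5 in the cultures. Of the class II list 3 of 6 genes measured were called higher, as were 7.11% of all genes. CD74, the invariant chain, was at 2.01 ± 0.536 against 0.329 CPM (log2 fold change 2.62, edgeR adjusted p = 0.00334), H2-AA at 0.568 against 0.114 CPM (2.32, adjusted p = 0.0122) and H2-AB1 at 1.56 against 0.340 CPM (2.21, adjusted p = 0.0214). CD207, the langerin of Langerhans cells, had 2, 2 and 13 counts in transgenic cultures and 0 in each wild-type one, and ITGAX had 8, 7 and 24 counts against 1, 0 and 1. Counts overlapped between genotypes for 3 other dendritic cell markers, FLT3 at 2, 1 and 4 counts against 1, 6 and 1, XCR1 at 3, 2 and 4 against 3, 4 and 2, and CCR7 at 8, 23 and 35 against 16, 16 and 11. PTPRC had 2, 8 and 16 counts against 4, 1 and 0.

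The whole list of 7 dendritic cell markers summed to 133.6 to 180.1 CPM in transgenic and 182 to 208 CPM in wild-type cultures, most of it EPCAM, which keratinocytes also express, and CLEC9A had no counts. The 10 T cell markers summed to 5.34 to 8.94 against 5.76 to 7.54 CPM, with no counts for CD3D, CD3E, CD3G, CD2 and CD6. The 7 myeloid markers summed to 33.2 to 47.6 against 25.4 to 35.9 CPM. The part of a few antigen-presenting cells in the NLRC5 and class II values was not tested.

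**Figure D4:**
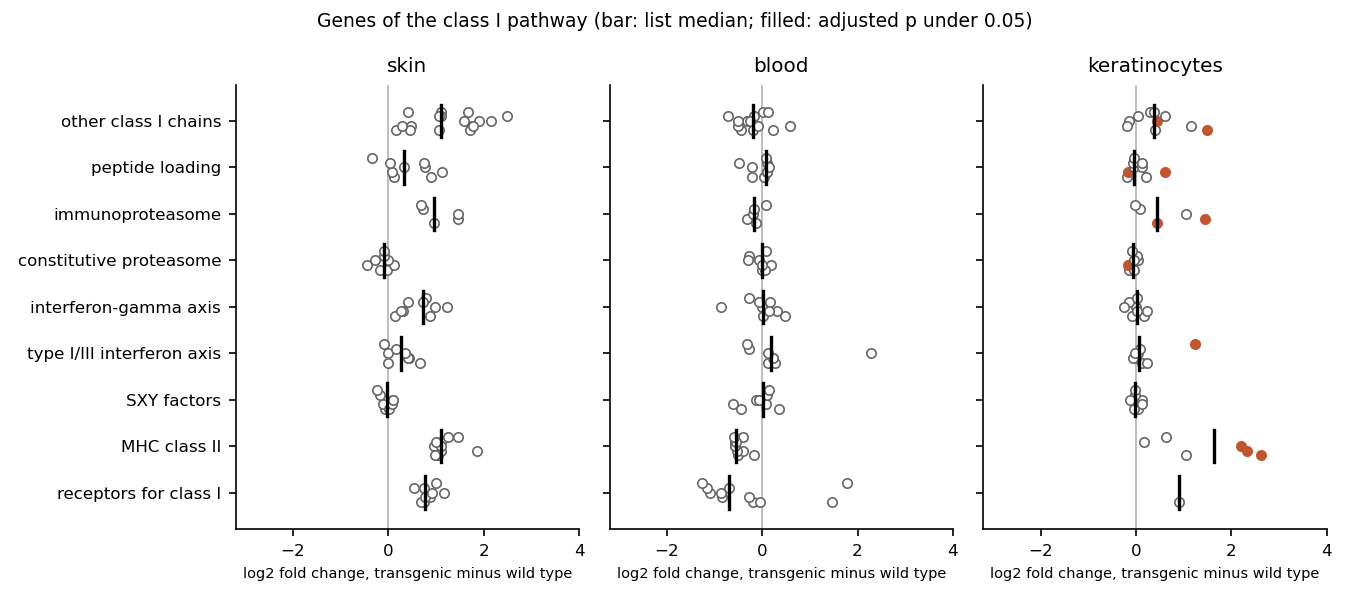
Log2 fold change, transgenic minus wild type, of each measured gene of 9 class I pathway lists in skin, blood and keratinocytes, with a bar at each list's median and filled points at an adjusted p under 0.05. In skin the other class I chains (median 1.11), immunoproteasome (0.95) and class II genes (1.10) lie right of 0 and none is filled, and 11 points are filled in keratinocytes.

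The make-up of heavy chain transcripts was set out as each chain's percentage of the summed RPKM of the 4 heavy chains, with no test. In skin it was nearly the same in both genotypes, H2-K1 taking 42.5 ± 2.40% in transgenic and 42.2 ± 1.14% in wild-type libraries (SD, n = 4). In blood H2-K1 took 28.6 ± 3.35% against 36.2 ± 2.11% and H2-D1 62.0 ± 2.58% against 54.2 ± 2.94%, and the ranges did not overlap for either. Shares of a sum depend on each other, and the level of H2-D1 itself overlapped between genotypes in blood (log2 fold change 0.07, edgeR adjusted p = 0.892). In keratinocytes H2-T23 took 17.4% to 17.6% in transgenic and 12.3% to 14.1% in wild-type cultures, more than its 3.68% to 5.26% in wild-type skin. NLRC5 came to 2.35 to 3.31 RPKM per 1000 RPKM of heavy chain in transgenic keratinocytes, 0.384 to 0.555 in wild-type keratinocytes and 8.47 to 11.3 in wild-type skin.

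**Figure D5:**
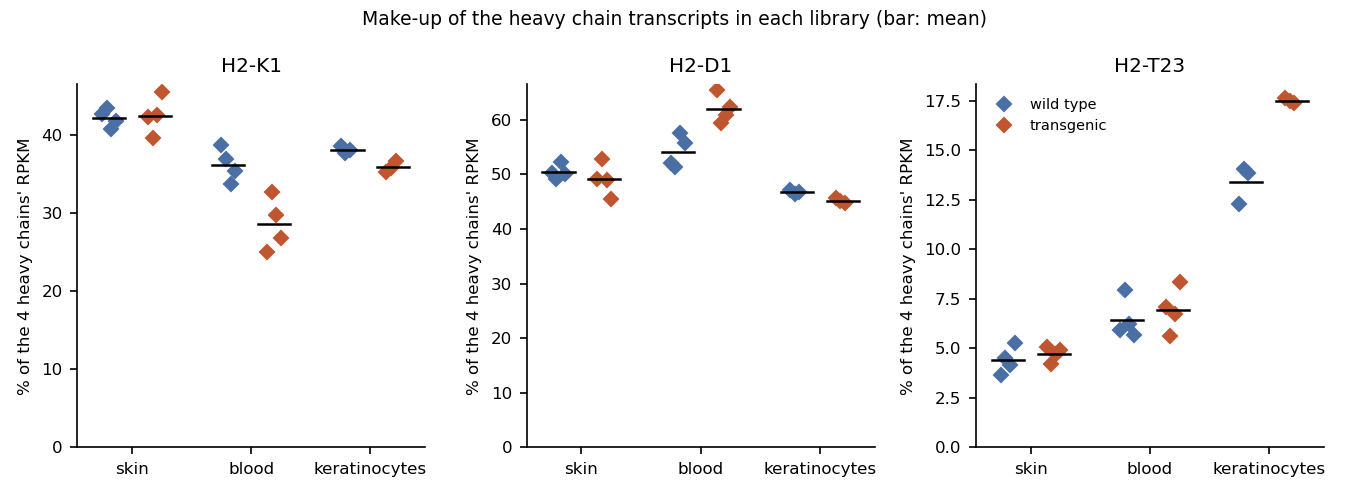
Share of H2-K1, H2-D1 and H2-T23 in the summed RPKM of the 4 heavy chains in each library of skin, blood and keratinocytes, wild type in blue and transgenic in orange, with bars at the group means. H2-T23 reaches 17.4% to 17.6% in transgenic keratinocytes against 12.3% to 14.1% in wild type, and H2-K1 is 25.0% to 32.7% against 33.7% to 38.7% in blood.

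Across the 8 skin libraries, which share the genotype difference and the hair difference, log2 CPM of the 5 chains moved together, with Pearson r of 0.953 to 0.994 over their 10 pairs. Each chain's r with NLRC5 was lower, at 0.742 to 0.816. In blood the chains' r ranged from -0.37 to 0.828 over 8 libraries and in keratinocytes from -0.27 to 0.733 over 6 cultures. The genes whose log2 CPM followed the mean of the 6 most closely in skin, among 12503 compared, were PARP10 (r = 0.993), SERPINA3I (0.993), SERPINA3G (0.992), H2-T22 (0.990) and CXCL16 (0.986). Closest to NLRC5 alone in skin were the genes SH3D21 (0.993), KRT78 (0.987), ACOX3 (0.986), LCE1J (0.986) and CCR4 (0.982). In keratinocytes, among 10027 genes over 6 cultures, they were EPHA1 (r = 0.9995), EFEMP2 (0.997), ZFP777 (0.997), TCAF2 (0.996) and FBLN2 (0.996), and the mean of the 6 was followed most closely by EXOC3L2 (0.997), SLC38A10, TCAF2, OLR1 and TRAPPC5. In blood, among 5796 genes, AGAP2 (0.970) was closest to the mean and ABL2 (0.964) to NLRC5. With so few libraries and so many genes compared, high r values arise without any relation, and they are given as a description.

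The near-identical class I genes limit how far reads can be told apart. Of all stretches of 50 bases in the annotated transcripts of each gene, all were unique to B2M, 99.7% to NLRC5, 90.4% to H2-K1, 87.2% to H2-D1, 85.5% to H2-T23 and 63.6% to H2-Q4, and at 100 bases 85.9% were unique to H2-Q4. The H2-Q4 stretches were shared most with the antisense Gm11131, and the sources used here do not say whether counting used strand. H2-Q4 values, and those of the other Q and T region genes and pseudogenes named above, are therefore uncertain in level. Which class I alleles the mice carry is also not given, and reads were aligned to the mm10 reference per the submitters' processing notes, so the effect of allele differences on H2-K1, H2-D1 and the Q and T genes was not tested.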

How the data were processed

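Stranded mRNA libraries of 16 tissue samples and 6 keratinocyte cultures were sequenced, per the labels' protocols. The authors deposited raw counts per gene symbol, 1 table for the tissues and 1 for the cultures. STAR 2.5.2, HTSeq 0.6.1, an unversioned DESeq2 and mm10 are named, per the submitters' processing notes, without their roles. No source used here gives the annotation, strand setting or filters. The members and gene lists were chosen with earlier results of these data known.

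Genotypes were compared with edgeR 4.0.16 (quasi-likelihood test, TMM, filterByExpr by group) in R 4.3.3, with a sex term for both tissues. Skin and blood effects were compared with animal as a block. The Benjamini-Hochberg adjusted p over all genes tested was called under 0.05. Fold changes are transgenic against wild type. CPM used TMM-scaled library sizes per source, and RPKM the union of GENCODE M21 exons (mm10). Positions came from the same annotation, in which 17763 of 26379 symbols matched. DESeq2 1.42.0 and limma 3.58.1 (voom), RLE scaling, no filter, other covariates and each library left out were the alternatives. Promoter letters came from RefSeq windows of 250 bases. Correlations used log2 CPM with a prior count of 2. Besides the 6 genes, up to 3 genes per list with the smallest p in each source were eligible for naming, not all of which are given, and for likeness the 5 genes of mean CPM 5 or more with the highest r. No replicate pair agreed within counting noise (chi-square per degree of freedom 4.51 to 668 over 30 pairs). Every sample column was used (0 left out). The fitting procedure was tested on simulated data with 200 changed genes, and the share of them it recovered is not given here.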

Additional observations from a re-analysis of the deposited data

Results flagged for a closer look

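H2-Q4 differed between tissues in its genotype effect, which was 1.82 higher in skin than in blood on the log2 scale (edgeR adjusted p = 0.0085). It was higher in all 4 transgenic skin libraries than in any wild-type one and lower in all 4 transgenic blood libraries. In every one of the 12 alternatives run it passed, at 1.67 to 1.96 with adjusted p of 4.79e-09 to 0.0388. Neither the hair covariate nor leaving out both libraries that stood apart in hair genes was among them. In skin alone the log2 fold change of H2-Q4 was 0.84 with the hair covariate (edgeR adjusted p = 0.254).

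A library lay far from the other 3 of its group in 2 of 24 groups of 4 values, where chance gives about 1 in 20. H2-D1 was at 1169 CPM in wild-type skin 2, the highest of its group, with a gap to the next library of 0.897 of the group's range (above Dixon's critical value). NLRC5 was at 35.5 CPM in transgenic skin 2, the lowest of its group, with a gap of 0.972 of the range. Both are the skin libraries that stood apart in hair follicle genes, and the part of that difference was not tested in single libraries.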

How the results depend on the processing

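Without both male libraries that stood apart in hair genes the members' log2 fold changes in skin were 1.38 (B2M), 1.39 (H2-K1), 1.25 (H2-D1), 1.62 (H2-Q4), 1.51 (H2-T23) and 1.24 (NLRC5), all called, with 1421 genes called higher and 1674 lower. The hair sums of the libraries that remain do not overlap between genotypes, so that fit cannot tell genotype from hair state. With the hair covariate NLRC5 turned to -0.20 and PSME3 to 0.041, and 2 genes were called lower. DESeq2 called 641 genes higher and 426 lower in skin and gave 1.08 (B2M), 1.04 (H2-K1), 0.99 (H2-D1), 1.32 (H2-Q4) and 1.12 (H2-T23), all called. Without the sex covariate 0 genes were called higher. In blood the counts higher and lower were 301 and 118 with DESeq2, 836 and 265 without the filter, 4 and 19 with limma-voom and 0 and 1 without skin-abundant genes, and 67 were higher without the sex covariate. H2-T23 in blood turned to 0.023 (DESeq2), 0.024 (RLE), 0.0081 (no filter), 0.0027 (limma-voom) and 0.030 (haemoglobin genes left out), never called.

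In keratinocytes B2M passed with DESeq2 (0.36), and H2-K1 was -0.0061 without the filter. With sex as a covariate 259 genes were called higher and 302 lower, H2-Q4 was 0.34, H2-T23 0.43 and RFXANK -0.048. In male cultures alone the counts were 81 and 102, H2-Q4 was 0.34, H2-T23 0.43 and RFXANK -0.051. NLRC5 in keratinocytes passed in all 12 alternatives run. For skin minus blood DESeq2 called 630 genes higher and 360 lower, and B2M (1.47), H2-K1 (1.55) and H2-T23 (1.195) passed. For sex by genotype DESeq2 called 64 higher and 67 lower in skin and 2 lower in blood, where no filter gave 1 higher and 331 lower, and B2M in blood was -0.00075 (DESeq2) and -0.00062 (RLE). The cause of these changes was not tested.

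Replicate numbers did not pair the animals of the 2 genotypes, since the deviations of same-numbered libraries correlated at -0.472 to 0.0862 in skin and -0.228 to 0.385 in blood. With the replicate block 0 genes were called higher in skin and 53 in blood, and no call of a member changed. The main fit for skin minus blood has the animal as a block. Without that block B2M was 1.44 (edgeR adjusted p = 0.0375) and H2-K1 1.53 (adjusted p = 0.0397), and both passed. The fit without it treats skin and blood of the same mouse as independent.

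Leaving out each library in turn gave 0 to 145 genes called higher and 0 to 164 lower in skin, 0 to 351 and 12 to 215 in blood, 381 to 1676 and 499 to 1975 in keratinocytes, 70 to 592 and 4 to 283 for skin minus blood, and 0 to 79 lower for sex by genotype in blood. In skin B2M ranged from 0.92 to 1.33, H2-D1 from 0.88 to 1.203, H2-Q4 from 1.12 to 1.51 and H2-T23 from 0.94 to 1.42. In blood H2-D1 ranged from -0.00041 to 0.18, H2-T23 from -0.14 to 0.083, PSME3 from -0.48 to 0.11 and PSMA3 from -0.018 to 0.34. In keratinocytes B2M ranged from 0.27 to 0.44, H2-K1 from -0.039 to 0.040 and H2-Q4 from -0.25 to 0.048. For skin minus blood B2M ranged from 1.28 to 1.65, H2-K1 from 1.37 to 1.80 and H2-T23 from 0.99 to 1.36. For sex by genotype in skin B2M ranged from 0.44 to 1.19, H2-K1 from 0.69 to 1.41, H2-D1 from 0.403 to 1.07, H2-Q4 from 0.99 to 1.41, H2-T23 from 0.22 to 1.202 and NLRC5 from 0.79 to 2.36, none called. For sex by genotype in blood B2M ranged from -0.11 to 0.15, H2-K1 from -0.15 to 0.32 and H2-D1 from -0.39 to 0.012. With 27 to 44 counts of NLRC5 per wild-type culture, counting error limits its fold change.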
